A study of Sus scrofa with 12 samples.

Results

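The genes described here are 10 that serve protein folding in the endoplasmic reticulum (ER) and the unfolded protein response: HSPA5, HSP90B1, DNAJB9, CALR, CANX, PDIA4, PDIA6, HERPUD1, XBP1 and ATF6. They were chosen by name, and each is 1 row of a table of 31908 genes from RNA-seq of cultured pig (Sus scrofa) muscle satellite cells. All 10 passed the filter on low values, as did 11636 genes in the whole table. The 12 libraries form 4 groups of 3: the CBP arm at 60h, WT cells at 60h, the CBP arm at 0h and WT cells at 0h. Per the labels, 0h is proliferation and 60h is differentiation. Cells of the CBP arm are taken here to have received SGC-CBP30, a compound that occupies the bromodomains of CBP and p300, which are histone acetyltransferases. The labels' protocol gives 5 uM/ml, a mixed unit printed here as labelled, with exposures of 48 h in proliferation and 60 h in differentiation. That text stands on every sample, WT included, and the arm names stand under a genotype tag, so this reading is not settled by the labels. What WT cells received is not stated. The labels also give C3H as the cell line, a name known from mice, although organism and genome build are those of the pig. The labels do not say whether the 3 libraries of a group came from separate cultures or animals, so the p-values measure only the spread between these libraries, which may be technical.

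Secreted and membrane proteins fold in the ER lumen, where HSPA5 (BiP) binds unfolded chains, the lectins calreticulin and calnexin hold glycoproteins, and protein disulfide isomerases set disulfide bonds. When unfolded chains accumulate, the sensors IRE1, PERK and ATF6 are activated and raise the transcription of chaperones and of the machinery that exports misfolded proteins for degradation. Differentiating myoblasts expand their ER-derived membranes, and parts of this response are known to be active during muscle differentiation. ATF6 is activated by cleavage and XBP1 by splicing of its mRNA, and gene-level values show neither step.

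Library totals recovered from the values ran between 16095335 and 19155240 reads. The number of reads behind a value of the 10 genes ran between 293, for DNAJB9 in a CBP-arm library at 0h, and 29909, for HSPA5 in a WT library at 60h. Levels are FPKM, which divides reads by gene length and by library total. Changes are differences of log2(FPKM + 1) from limma, with standard error (SE), and a gene was called at a Benjamini-Hochberg adjusted p under 0.05 over the 11636 genes. As a whole the genes tested moved a little. The median log2 change of all 11636 genes, CBP arm against WT, was 0.10 at 60h and 0.12 at 0h. Changes after median-of-ratios scaling, which sets that median near 0, are therefore given beside those of the values as deposited. In bulk libraries, fewer cells of a type and less RNA per cell cannot be told apart.

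All 8 markers of the muscle lineage were detected. Their summed FPKM was 1478 to 1599 in the CBP arm at 60h and 2418 to 2606 in WT cells at 60h. It was 382 to 414 in the CBP arm at 0h and 1623 to 1634 in WT cells at 0h. At 60h 5 of the 8 were called lower in the CBP arm (MYOD1, MYOG, DES, MYH3 and ACTA1) and 2 higher, PAX7 (12.3 FPKM in the CBP arm, 7.57 FPKM in WT cells) and MYF5 (102 FPKM in the CBP arm, 87.4 FPKM in WT cells), though MYF5 lost its call after scaling. At 0h all 8 were called lower in the CBP arm. WT cells at 0h, though labelled as proliferating, held MYOG at 343 FPKM, MYH3 at 163 FPKM and ACTA1 at 126 FPKM. The CBP arm at 0h held these 3 at 28.5, 11.5 and 8.10 FPKM. The 8 fibroblast markers summed to 2541 to 2785 FPKM in the CBP arm at 60h, against 3756 to 3920 FPKM in WT cells at 60h, and to 582 to 598 FPKM in the CBP arm at 0h, against 1105 to 1142 FPKM in WT cells at 0h. The lower sum at 60h followed COL1A1, at 1551 FPKM in the CBP arm and 2854 FPKM in WT cells. By count, 5 of the 8 were higher in the CBP arm at 60h (PDGFRA, COL3A1, LUM, PDGFRL and FBLN1) and 1 was lower, or 3 and 2 after scaling. At 0h 0 were higher and 5 lower. The 8 smooth muscle and pericyte markers summed to 2692 to 2885 FPKM in the CBP arm at 60h, against 3860 to 3870 FPKM in WT cells at 60h. At 0h they summed to 1462 to 1512 FPKM in the CBP arm, against 3717 to 3865 FPKM in WT cells. Of these, 5 were lower at 60h, among them ACTA2 at 1558 FPKM in the CBP arm and 2567 FPKM in WT cells, and 1 was higher, RGS5 of pericytes at 8.44 FPKM in the CBP arm and 4.57 FPKM in WT cells. TAGLN (1110.3 FPKM in the CBP arm, 1117 FPKM in WT cells) and NOTCH3 (17.0 FPKM in the CBP arm, 15.8 FPKM in WT cells) were not called at 60h as deposited, and TAGLN was called lower after scaling. At 0h all 8 were lower. No fibroblast, smooth muscle or pericyte marker was at 0 in all libraries of a group. FBLN1 was under 1 FPKM in every WT library at 60h, and FBLN1, PDGFRL and RGS5 were so in every library at 0h. MYH11 was under 1 FPKM in every CBP-arm library at 0h. The calls of FBLN1 at 60h and of MYH11 and RGS5 at 0h thus rest in part on low values. The part of these cell-type markers in the results below was not tested. Endothelial markers summed to at most 4.03 FPKM and immune markers to at most 7.43 FPKM in any library, and CD3E, of T cells, was at 0 in all 12. Adipocyte markers summed to 1.76 to 11.07 FPKM, with ADIPOQ, PLIN1 and LEP under 1 FPKM in every library. At 0h PPARG (3.52 FPKM in the CBP arm, 1.51 FPKM in WT cells) and CEBPA (1.46 and 0.843 FPKM) were called higher in the CBP arm on both scales. FABP4 at 0h (5.50 and 5.95 FPKM) was called lower only after scaling. At 60h PPARG (1.07 and 0.759 FPKM) was called higher, FABP4 (0.318 and 0.715 FPKM) lower and CEBPA not. These calls rest on low values.

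The lumenal chaperone HSPA5 (ENSSSCG00000005601, chromosome 1, 265930044 to 265934959 in Sscrofa11.1) stood at 445, 454 and 439 FPKM in the CBP arm at 60h, against 634, 634 and 627 FPKM in WT cells at 60h. At 0h it stood at 201, 203 and 205 FPKM in the CBP arm, against 189, 193 and 199 FPKM in WT cells. The groups did not overlap in either pair, and all 60h libraries lay above all 0h libraries. HSP90B1 (ENSSSCG00000000849, chromosome 5, 80511513 to 80531016), the ER member of the HSP90 family, had 244, 246 and 236 FPKM in the CBP arm at 60h, against 202, 193 and 195 FPKM in WT cells at 60h. At 0h it had 101, 102 and 100.2 FPKM in the CBP arm, against 93.3, 102 and 96.5 FPKM in WT cells. For this gene the 60h groups did not overlap, and the CBP arm was the higher one, the opposite of HSPA5. The 0h groups of HSP90B1 overlapped. DNAJB9 (ENSSSCG00000016653, chromosome 18, 36578928 to 36584211), a J-domain partner of HSPA5, had 9.76, 9.88 and 9.80 FPKM in the CBP arm at 60h, against 14.97, 14.5 and 13.8 FPKM in WT cells at 60h. At 0h it had 3.36, 3.41 and 3.64 FPKM in the CBP arm, against 5.35, 4.85 and 4.89 FPKM in WT cells. Its CBP-arm libraries were the lower ones at both times, with no overlap.

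Among the lectin chaperones, calreticulin (CALR, ENSSSCG00000013746, chromosome 2, 66098263 to 66102074), which also binds lumenal calcium, had 554, 571 and 551 FPKM in the CBP arm at 60h, against 368, 373 and 377 FPKM in WT cells at 60h. At 0h CALR had 285, 280.2 and 284 FPKM in the CBP arm, against 231, 241 and 233 FPKM in WT cells. The CBP arm was higher at both times, with no overlap. Calnexin (CANX, ENSSSCG00000014020, chromosome 2, 78879031 to 78915828), its membrane-bound relative, ran between 176 and 184 FPKM in the CBP arm at 60h, against 155 to 160.0 FPKM in WT cells at 60h. At 0h CANX ran between 132 and 135 FPKM in the CBP arm, against 125 to 127 FPKM in WT cells. Its groups did not overlap, and they lay closer together than those of CALR.

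Both disulfide isomerases were higher in the CBP arm at 60h. PDIA4 (ENSSSCG00000015453, chromosome 9, 109260850 to 109280256) had 149.9, 156 and 147 FPKM in the CBP arm at 60h, against 97.1, 102 and 97.1 FPKM in WT cells at 60h. At 0h PDIA4 had 70.1, 71.2 and 71.1 FPKM in the CBP arm, against 53.6, 53.4 and 53.8 FPKM in WT cells. The CBP arm was higher at both times, with no overlap. PDIA6 (ENSSSCG00000008633, chromosome 3, 125752079 to 125774225) ran between 100.4 and 102 FPKM in the CBP arm at 60h, against 81.7 to 84.6 FPKM in WT cells at 60h. At 0h PDIA6 ran between 55.3 and 57.3 FPKM in the CBP arm, against 56.8 to 57.9 FPKM in WT cells, and these groups overlapped.

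HERPUD1 (ENSSSCG00000040663, chromosome 6, 18901171 to 18913427), an ER membrane protein of ER-associated degradation, had 29.5, 28.7 and 28.0 FPKM in the CBP arm at 60h, against 25.4, 25.6 and 25.1 FPKM in WT cells at 60h. At 0h HERPUD1 had 11.8, 10.9 and 12.5 FPKM in the CBP arm, against 16.2, 17.3 and 16.03 FPKM in WT cells. Neither pair overlapped, and the order of the arms differed: the CBP arm was higher at 60h and lower at 0h. The transcription factor XBP1 (ENSSSCG00000030996, chromosome 14, 46011239 to 46016526) had 30.4, 30.8 and 30.4 FPKM in the CBP arm at 60h, against 33.2, 31.3 and 29.6 FPKM in WT cells at 60h. At 0h XBP1 had 25.0, 24.5 and 25.7 FPKM in the CBP arm, against 29.7, 29.0 and 27.2 FPKM in WT cells. Its 60h groups overlapped and its 0h groups did not. ATF6 (ENSSSCG00000006346, chromosome 4, 88591279 to 88806156), the membrane-anchored sensor and transcription factor, had 37.7, 37.3 and 36.6 FPKM in the CBP arm at 60h, against 48.9, 48.6 and 48.9 FPKM in WT cells at 60h. At 0h ATF6 had 37.0, 37.0 and 37.0 FPKM in the CBP arm, against 44.1, 44.5 and 44.1 FPKM in WT cells. The CBP arm was lower at both times, and the CBP-arm libraries of the 2 times overlapped.

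**Figure D1:**
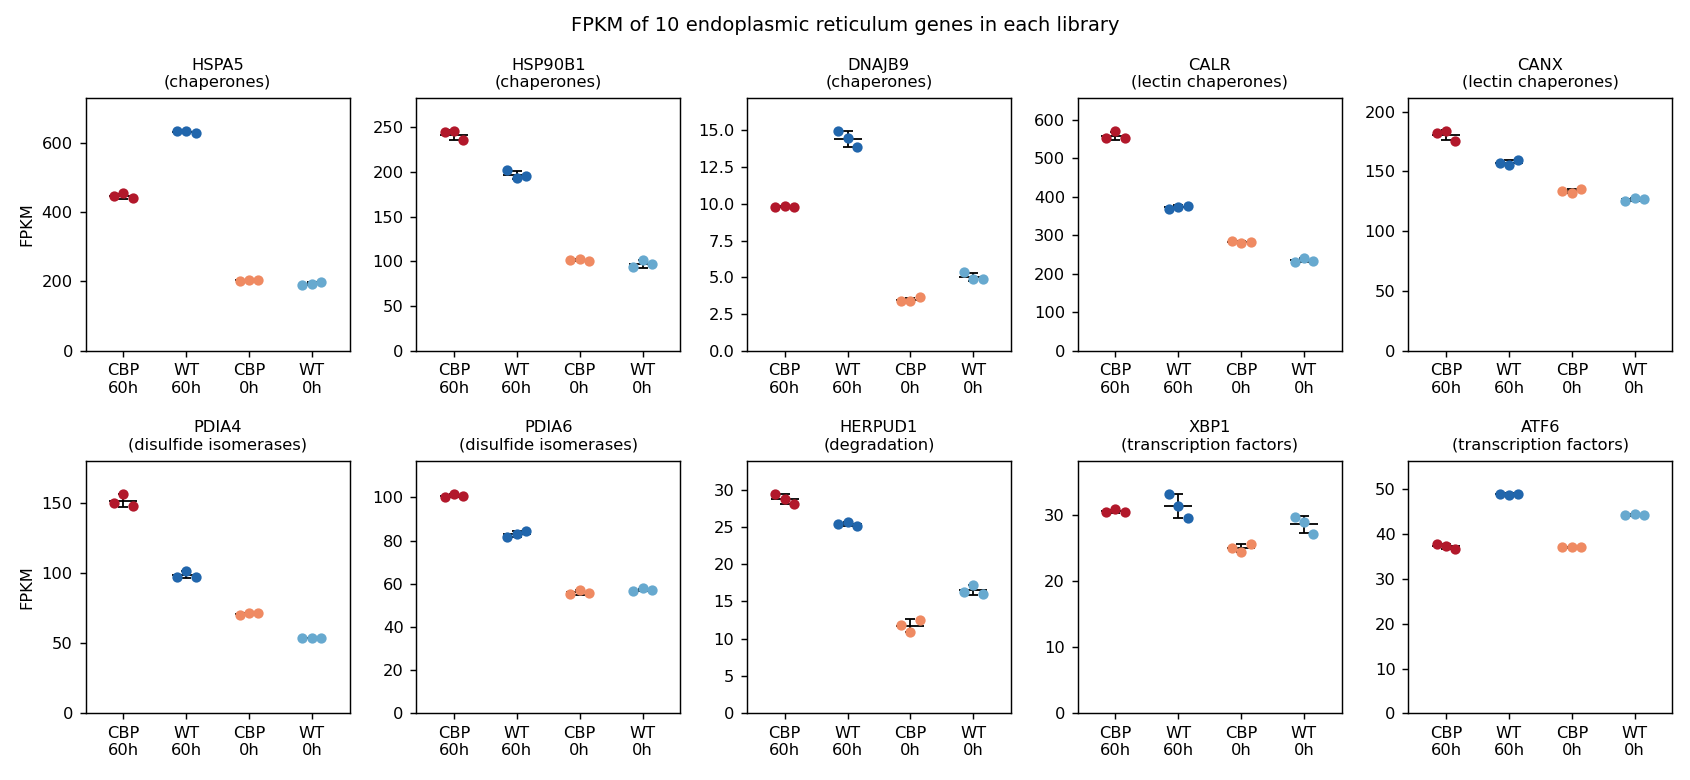
FPKM of the 10 genes in each library, 1 panel per gene with its role, for the CBP arm and WT cells at 60h and then at 0h; points are libraries, and the bar is the mean with SD (n = 3). CALR is highest in the CBP arm at 60h (551 to 571 FPKM), while HSPA5 is highest in WT cells at 60h (627 to 634 FPKM).

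By level, CALR was the most abundant of the 10 in the CBP arm at 60h, the CBP arm at 0h and WT cells at 0h, and HSPA5 was the most abundant in WT cells at 60h. DNAJB9 was the least abundant in every group. HSP90B1 stood above CANX in both arms at 60h and below it in both arms at 0h. PDIA4 stood above PDIA6 in all groups except WT cells at 0h. No 2 neighbours in the order overlapped in any group. The summed FPKM of the 10 genes was 1783, 1819.6 and 1755 in the CBP arm at 60h, against 1662, 1660.2 and 1658 in WT cells at 60h. At 0h the sum was 924, 923 and 929 in the CBP arm, against 844, 870.3 and 859 in WT cells. As deposited the CBP arm was higher at 60h, with no overlap, and also at 0h. After median-of-ratios scaling the sum was 1728, 1796 and 1707 in the CBP arm at 60h, against 1776, 1775 and 1766 in WT cells at 60h, and 862, 859.8 and 854 in the CBP arm at 0h, against 855, 889 and 885 in WT cells at 0h. On that scale the mean was lower in the CBP arm at both times and the libraries of the arms overlapped, so the sums show no stable direction between the arms. As deposited the sum was 0.513% to 0.528% of all FPKM in the CBP arm at 60h, 0.485% to 0.489% in WT cells at 60h, 0.247% to 0.251% in the CBP arm at 0h and 0.234% to 0.240% in WT cells at 0h.

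In differentiation, at 60h, the comparison asks how the 10 genes differed between the arms, and the genes split. HSPA5, its partner DNAJB9 and the sensor ATF6 were lower in the CBP arm than in WT cells, and the calreticulin and disulfide isomerase genes were higher. Of the 10, 6 were higher and 3 lower, against 44.7% higher and 27.0% lower among all genes tested. Most genes tested were called in this comparison, so the counts are not particular to the 10. The median log2 change of the 10 was 0.18, against 0.10 over all genes. HSPA5 averaged 446 ± 7.25 FPKM in the CBP arm and 632 ± 4.21 FPKM in WT cells (SD, n = 3 each), 1.42-fold lower, with a log2 change of -0.50 (SE 0.024, limma adjusted p = 2.81e-09). DNAJB9 was 1.47-fold lower, at -0.51 (SE 0.045, limma adjusted p = 6.92e-07), and ATF6 was 1.31-fold lower, at -0.38 (SE 0.022, limma adjusted p = 1.23e-08). These 3 were also lower after median-of-ratios scaling, at -0.63, -0.63 and -0.51.

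The higher genes at 60h were led by PDIA4 and CALR. PDIA4 averaged 151 ± 4.66 FPKM in the CBP arm and 98.6 ± 2.54 FPKM in WT cells, 1.53-fold higher, at a log2 change of 0.61 (SE 0.027, limma adjusted p = 1.47e-09). CALR averaged 559 ± 10.7 FPKM in the CBP arm and 373 ± 4.57 FPKM in WT cells, 1.499-fold higher, at 0.58 (SE 0.024, limma adjusted p = 7.15e-10). After scaling these changes were 0.48 for PDIA4 and 0.45 for CALR. Smaller rises were measured for HSP90B1 (0.30, SE 0.033, limma adjusted p = 5.26e-06), PDIA6 (0.28, SE 0.023, limma adjusted p = 4.51e-07) and CANX (0.20, SE 0.023, limma adjusted p = 1.01e-05), and they were 0.17, 0.15 and 0.07 after scaling. HERPUD1 was called at 0.17 (SE 0.046, limma adjusted p = 0.00478), a call lost after scaling (0.05, limma adjusted p = 0.343). XBP1 was not called, at -0.04 (SE 0.043, limma adjusted p = 0.467), and after scaling it was called lower, at -0.16 (limma adjusted p = 0.00433). The scaled counts were 5 higher and 4 lower of 10, against 33.5% and 35.7% of all genes. Without WT replicate 1 at 60h, the change of XBP1 was 0.005.

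**Figure D2:**
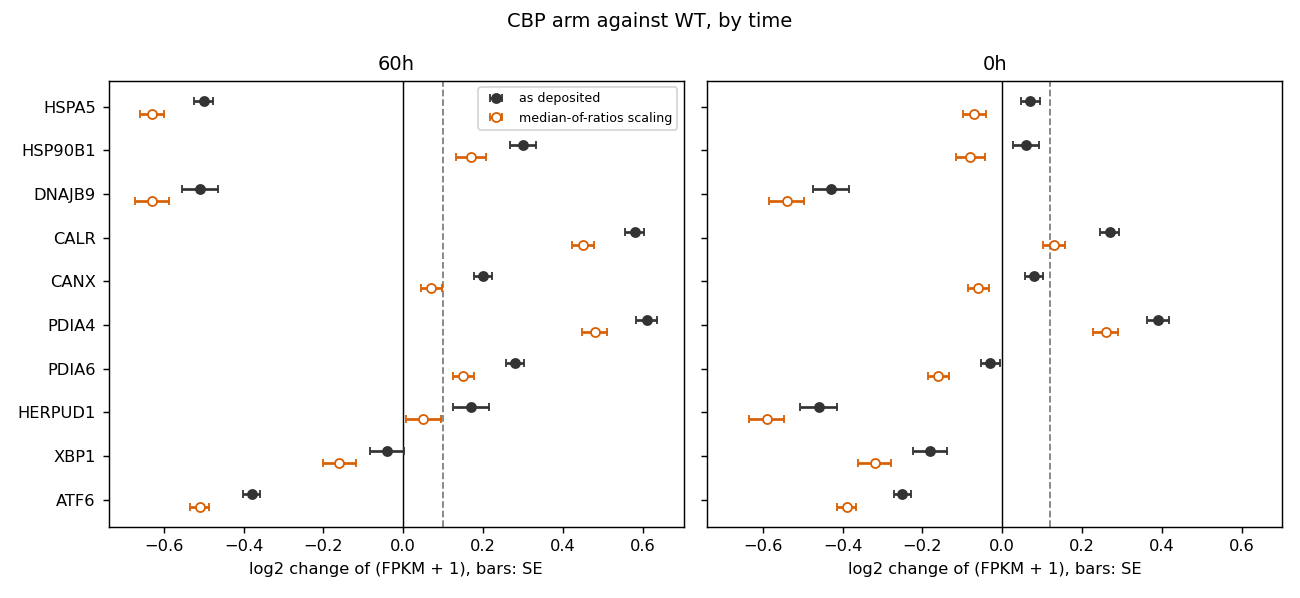
Log2 change of (FPKM + 1), CBP arm against WT, at 60h (left) and 0h (right), with SE bars; filled points are values as deposited, open points are after median-of-ratios scaling, and the dashed line is the median of all genes tested as deposited. HSPA5 sits at -0.50 at 60h and at 0.07 at 0h, while PDIA4 is above 0 in both panels.

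Ratios within a library do not depend on scaling, and they show the split at 60h as a description. HSPA5 stood at 1.84 ± 0.021 times HSP90B1 in the CBP arm at 60h, against 3.21 ± 0.071 times in WT cells at 60h (SD, n = 3 each). The ratio to CALR was 0.799 ± 0.0049 in the CBP arm at 60h, against 1.69 ± 0.031 in WT cells at 60h. The ratio to PDIA4 was 2.95 in the CBP arm at 60h, against 6.41 in WT cells at 60h. All 3 ratios were thus smaller in the CBP arm, with no overlap. The exception was DNAJB9, where HSPA5 stood at 45.5 ± 0.56 times in the CBP arm at 60h, against 43.8 ± 1.46 times in WT cells at 60h, with overlapping ranges. HSPA5 and DNAJB9 thus differed between the arms by a similar factor at 60h. At 0h the ratio of HSPA5 to HSP90B1 was 2.01 ± 0.030 in the CBP arm, against 1.99 ± 0.089 in WT cells, with overlapping ranges, as for CANX. Other ratios differed at 0h without overlap. The ratio to DNAJB9 was 58.6 ± 2.06 in the CBP arm at 0h, against 38.6 ± 2.91 in WT cells at 0h, and that to HERPUD1 was 17.3 ± 1.24 in the CBP arm, against 11.7 ± 0.63 in WT cells. These were larger in the CBP arm, while the ratio to PDIA4 was smaller (2.87 ± 0.012 in the CBP arm at 0h, 3.61 ± 0.089 in WT cells at 0h), as was that to CALR (0.719 ± 0.0096 in the CBP arm, 0.825 ± 0.028 in WT cells).

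**Figure D3:**
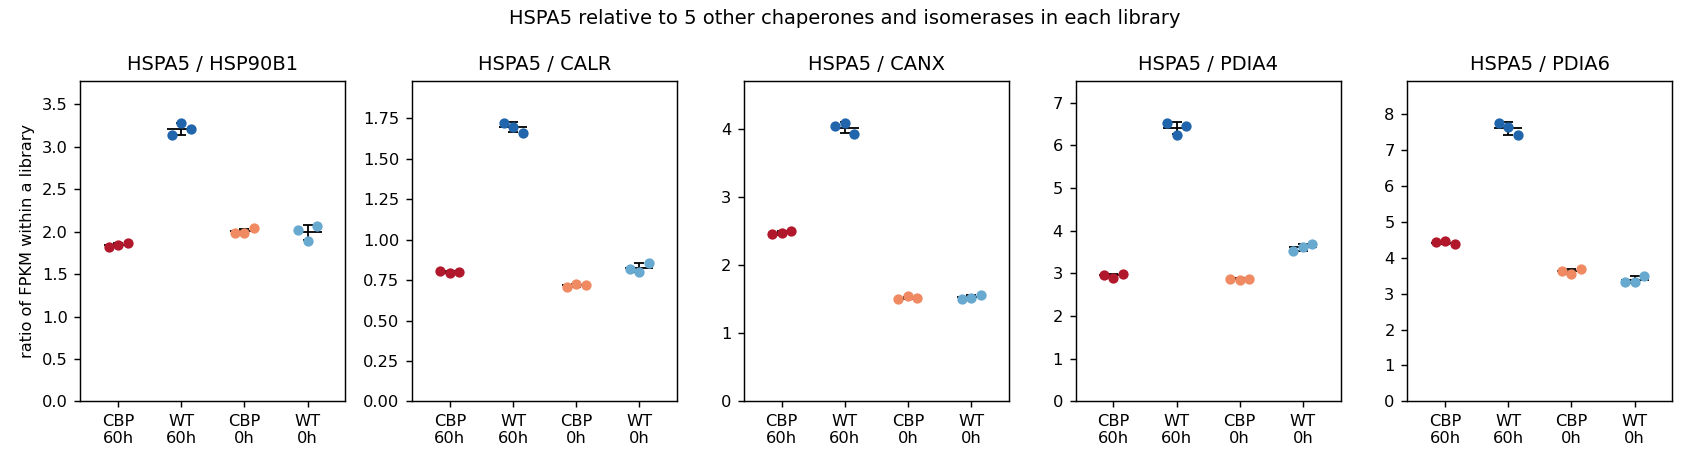
Ratio of HSPA5 FPKM to that of HSP90B1, CALR, CANX, PDIA4 and PDIA6 within each library, for the CBP arm and WT cells at 60h and then 0h; points are libraries, and the bar is the mean with SD (n = 3). In every panel WT cells at 60h have the highest ratio, such as that to HSP90B1, at 1.84 in the CBP arm at 60h against 3.21 in WT cells at 60h.

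At 0h, labelled proliferation, the comparison asks whether the arms differed at that time. WT cells at 0h held more MYOG, MYH3 and ACTA1 than the CBP arm, so the arms were not alike in muscle markers. DNAJB9, HERPUD1, XBP1 and ATF6 were lower in the CBP arm, and CALR and PDIA4 were higher, while HSPA5 and HSP90B1 lay close to their WT levels. As deposited, 4 of the 10 were called higher and 4 lower, against 44.2% and 18.1% of all genes tested. After median-of-ratios scaling 2 were higher (CALR and PDIA4) and 5 lower, against 25.4% and 26.9% of all genes. The median log2 change of the 10 was 0.01, against 0.12 over all genes. HERPUD1 averaged 11.8 ± 0.84 FPKM in the CBP arm and 16.5 ± 0.66 FPKM in WT cells, 1.41-fold lower, at -0.46 (SE 0.046, limma adjusted p = 3.83e-06). DNAJB9 was 1.45-fold lower, at -0.43 (SE 0.045, limma adjusted p = 5.53e-06). ATF6 was lower by a smaller step, at -0.25 (SE 0.022, limma adjusted p = 1.03e-06), as was XBP1, at -0.18 (SE 0.043, limma adjusted p = 0.00263). After scaling these 4 changes were -0.59, -0.54, -0.39 and -0.32.

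PDIA4 was 1.32-fold higher in the CBP arm at 0h, at 0.39 (SE 0.027, limma adjusted p = 1.66e-07), and CALR was 1.20-fold higher, at 0.27 (SE 0.024, limma adjusted p = 1.43e-06). These were 0.26 and 0.13 after scaling. The remaining 4 genes depended on the scale. HSPA5 was called higher as deposited, at 0.07 (SE 0.024, limma adjusted p = 0.0248), and had the opposite sign after scaling, at -0.07 (limma adjusted p = 0.0655). Its call was also lost without CBP-arm replicate 2 or 3 (limma adjusted p = 0.0524 and 0.0581) or WT replicate 1 or 2 (0.108 and 0.066). CANX was called at 0.08 (SE 0.023, limma adjusted p = 0.0128) and stood at -0.06 after scaling (limma adjusted p = 0.0718). The call of CANX was also lost under TPM scaling (limma adjusted p = 0.165). HSP90B1 was not called, at 0.06 (SE 0.033, limma adjusted p = 0.141), and stood at -0.08 after scaling. It was called higher without WT replicate 2 (0.09, limma adjusted p = 0.0236) and under quantile scaling (0.0996, limma adjusted p = 0.0152). PDIA6 was not called as deposited, at -0.03 (SE 0.023, limma adjusted p = 0.302), and was called lower after scaling, at -0.16 (limma adjusted p = 0.000201).

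From proliferation to differentiation most of these genes rose in both arms. The steepest rise was that of DNAJB9 in the CBP arm, at 2.83-fold, and that of HSPA5 in WT cells, at 3.26-fold. In the CBP arm 9 of 10 were higher at 60h than at 0h and 1 was not called, against 31.3% higher among all genes tested. In WT cells 10 of 10 were higher, against 28.8%, though the call of XBP1 was lost under some alternatives. The median log2 change of the 10 was 1.03 in the CBP arm, against -0.06 over all genes, and 0.63 in WT cells, against -0.05 over all genes. These comparisons share no library with each other, but each shares libraries with the comparisons of the arms, so they are given side by side only.

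In the CBP arm, 60h against 0h, HSPA5 changed by 1.13 (SE 0.024, 2.20-fold, limma adjusted p = 1.72e-12) and HSP90B1 by 1.25 (2.39-fold, limma adjusted p = 1.03e-11). DNAJB9 changed by 1.28 and HERPUD1 by 1.22 (2.44-fold, limma adjusted p = 2.28e-10). PDIA4 changed by 1.08, CALR by 0.98, PDIA6 by 0.84 and CANX by 0.43. XBP1 was 1.22-fold higher, at 0.28 (limma adjusted p = 8.7e-05). ATF6 was the 1 gene not called, at 0.01 (SE 0.022, limma adjusted p = 0.72), and after scaling it was called higher, at 0.08 (limma adjusted p = 0.00882). In this arm HSP90B1, DNAJB9 and HERPUD1 had a larger log2 change than HSPA5.

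In WT cells, 60h against 0h, HSPA5 changed by 1.70 (SE 0.024, limma adjusted p = 3.94e-13), DNAJB9 by 1.35 (2.87-fold, limma adjusted p = 1.67e-10) and HSP90B1 by 1.01 (2.02-fold, limma adjusted p = 1.35e-10). PDIA4 changed by 0.87, CALR by 0.66, HERPUD1 by 0.59, PDIA6 by 0.53 and CANX by 0.31. ATF6 was 1.10-fold higher, at 0.14 (limma adjusted p = 0.000112). XBP1 changed by 0.13 (SE 0.043, limma adjusted p = 0.0181), a call lost without WT replicate 3 at 0h (limma adjusted p = 0.0828) or WT replicate 1 at 60h (limma adjusted p = 0.082).

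**Figure D4:**
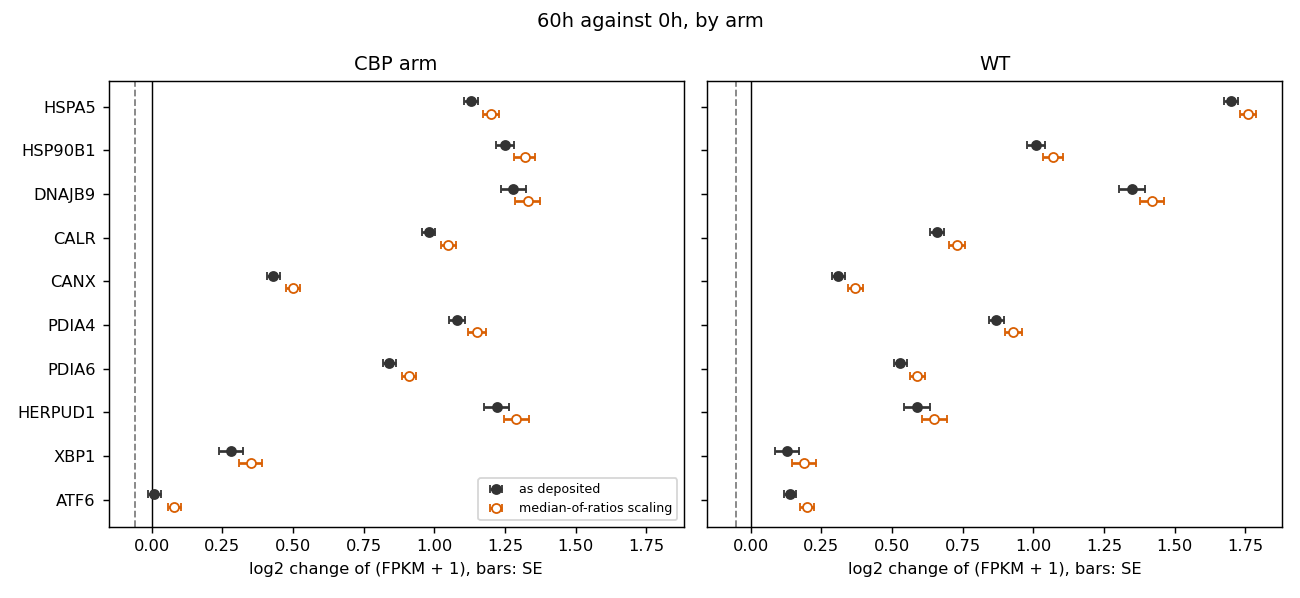
Log2 change of (FPKM + 1), 60h against 0h, in the CBP arm (left) and WT cells (right), with SE bars; filled points are values as deposited, open points are after median-of-ratios scaling, and the dashed line is the median of all genes tested as deposited. HSPA5 reaches 1.13 in the CBP arm and 1.70 in WT cells, while HERPUD1 reaches 1.22 in the CBP arm and 0.59 in WT cells.

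The interaction, the CBP effect at 60h minus the CBP effect at 0h, tests whether the difference between the arms changed between the times. The labelled exposure also differs, at 48 h in proliferation and 60 h in differentiation, so stage and exposure cannot be told apart. The term is named the interaction below. The interaction was called for 8 of the 10 genes, 6 higher and 2 lower, against 24.3% and 26.7% of all genes tested. HSPA5 had the largest negative value, -0.57 (SE 0.034, limma adjusted p = 7.43e-08), and ATF6 had -0.13 (SE 0.030, limma adjusted p = 0.00365). HERPUD1 had the largest positive one, 0.63 (SE 0.065, limma adjusted p = 6.87e-06), followed by CALR at 0.31 and PDIA6 at 0.31. HSP90B1 had 0.24, PDIA4 0.22 and CANX 0.12. For DNAJB9 the value was -0.08 (SE 0.064, limma adjusted p = 0.324), so a difference between the times was not detected, with the CBP arm lower at both. XBP1 had 0.15 (limma adjusted p = 0.0596), and was called after scaling (limma adjusted p = 0.0438) and without WT replicate 3 at 0h (limma adjusted p = 0.0241) or WT replicate 1 at 60h (limma adjusted p = 0.0154). Under quantile scaling the calls of CANX (limma adjusted p = 0.132) and ATF6 (limma adjusted p = 0.0845) were lost.

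Other genes of the pathway were followed in 7 lists, of which 6 are given here, and they did not move as 1 block at 60h. Their counts stand beside 44.7% higher and 27.0% lower among all genes tested, or 33.5% and 35.7% after scaling, and several lists lie near those shares. Of 9 tested ER co-chaperones, 6 were higher in the CBP arm than in WT cells, 1 lower and 2 not called, and 3 were higher and 2 lower after median-of-ratios scaling. DNAJC10, a J-domain reductase, averaged 30.5 ± 0.79 FPKM in the CBP arm and 22.2 ± 0.35 FPKM in WT cells (log2 change 0.44, limma adjusted p = 9.26e-08), and SIL1, the nucleotide exchange factor of HSPA5, had 0.37. Of 14 disulfide enzymes, 7 were higher and 2 lower, or 6 and 4 after scaling. QSOX1, a sulfhydryl oxidase, was 2.09-fold higher, averaging 19.7 ± 0.21 FPKM in the CBP arm and 9.41 ± 0.36 FPKM in WT cells (0.99, limma adjusted p = 2.59e-10). PDIA5 had 0.46. PDIA3, the isomerase that works with CALR and CANX and was named after its values were seen, had 0.25, and 0.12 after scaling.

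The ER degradation list held 8 higher and 4 lower genes of 17 at 60h as deposited, but 2 higher and 6 lower after scaling, so its direction depends on the scale. Its 2 largest changes were falls on both scales. SEL1L, the adaptor of the HRD1 ligase, averaged 48.2 ± 1.08 FPKM in the CBP arm and 75.8 ± 1.87 FPKM in WT cells (-0.64, limma adjusted p = 1.19e-09). SELENOS, a selenoprotein of the same complex, averaged 43.3 ± 1.78 FPKM in the CBP arm and 63.4 ± 0.79 FPKM in WT cells (-0.54, limma adjusted p = 5.99e-07). The translocon and signal peptidase list held 8 higher and 6 lower of 16, and 2 and 8 after scaling. In it the translocon-associated SSR1 had 0.37 and the signal peptidase subunit SEC11C had -0.48 (limma adjusted p = 4.32e-06). The glycan folding list held 4 higher and 3 lower of 11, and 3 and 4 after scaling, with the glucosidase MOGS at 0.44 and the oligosaccharyltransferase subunit STT3B at 0.33.

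Among 14 tested sensors and transducers of the unfolded protein response, 7 were higher and 5 lower in the CBP arm at 60h, or 5 and 6 after scaling. ERN1 (IRE1), MBTPS2 and BCL2L11 of this list had no row under their symbols and were not examined. The same holds for SDF2L1 and CDNF of the co-chaperones and MAN1B1 of glycan folding. DDIT3 (CHOP), a transcription factor linked to cell death under stress, averaged 8.81 ± 0.67 FPKM in the CBP arm and 4.29 ± 0.25 FPKM in WT cells, 2.05-fold higher (0.89, SE 0.092, limma adjusted p = 3.08e-06). TRIB3, a pseudokinase induced downstream of ATF4 and DDIT3, averaged 16.8 ± 0.65 FPKM in the CBP arm and 31.7 ± 0.87 FPKM in WT cells, 1.89-fold lower (-0.88, SE 0.074, limma adjusted p = 4.54e-07). A further 5 genes of this list were named for their roles after their values were seen. ATF4, the transcription factor translated under PERK signalling, had -0.34 (limma adjusted p = 1.78e-06). CREB3L2, a membrane-bound relative of ATF6, averaged 34.7 ± 0.53 FPKM in the CBP arm and 18.8 ± 0.36 FPKM in WT cells (0.85, limma adjusted p = 3.51e-10). MBTPS1, the protease that cleaves ATF6 in the Golgi, had 0.60 (limma adjusted p = 2.02e-08). EIF2AK3 (PERK) had 0.20 (limma adjusted p = 0.0156) and PPP1R15A, a phosphatase subunit that counters PERK, had 0.12 (limma adjusted p = 0.0474). Both of these calls were lost after scaling, where EIF2AK3 had 0.08 and PPP1R15A -0.01. That of EIF2AK3 was also lost under quantile scaling (limma adjusted p = 0.121). That of PPP1R15A was also lost under TPM scaling, pseudocount 0.1, no low-value filter and no trend (limma adjusted p = 0.0658, 0.0511, 0.0876 and 0.068). EIF2AK3 also lost its call without CBP-arm replicate 2 or WT replicate 2 at 60h (limma adjusted p = 0.0553 and 0.0657), as PPP1R15A did without any 1 of the 6 libraries at 60h (limma adjusted p 0.0543 to 0.166) or without CBP-arm replicate 1 or WT replicate 1 or 2 at 0h (0.0572, 0.0568 and 0.0576).

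**Figure D5:**
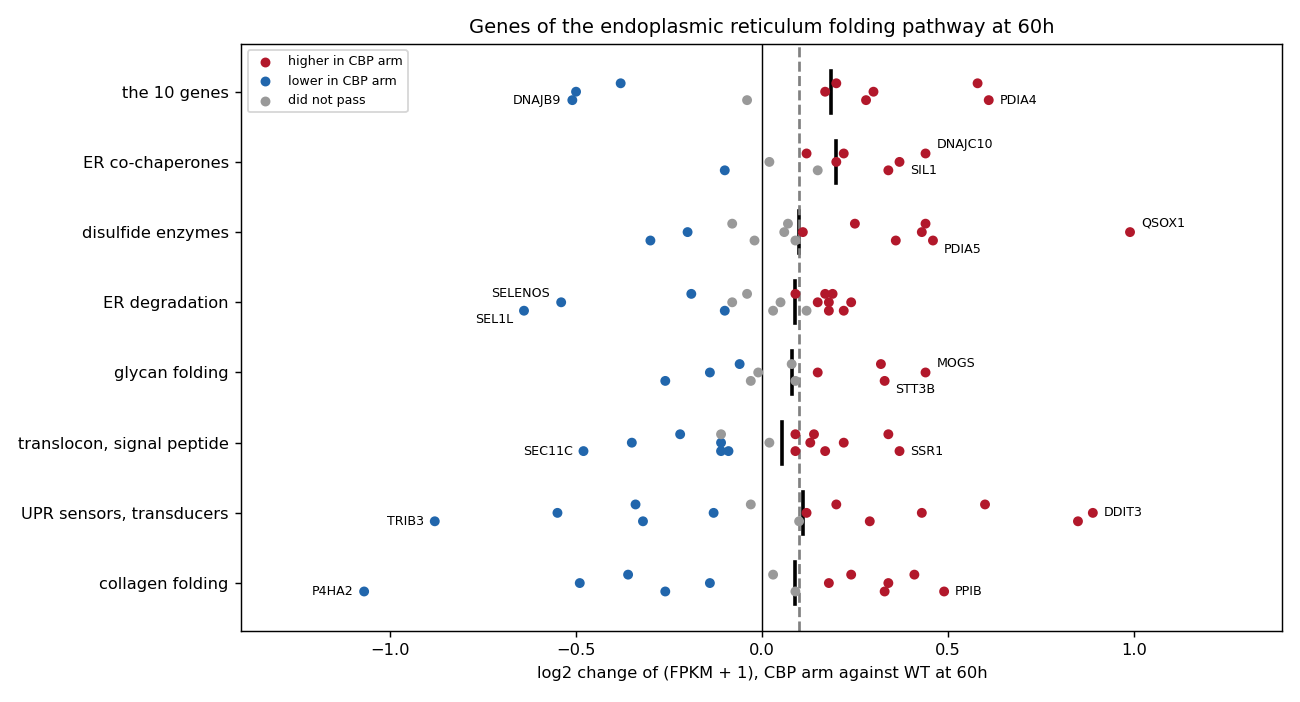
Log2 change of (FPKM + 1) at 60h, CBP arm against WT, for each tested gene of the 10 and of 7 pathway lists; points are genes, coloured by call, black bars are list medians, and the dashed line is the median of all genes tested. Genes of each list lie on both sides of 0, from P4HA2 at -1.07 to QSOX1 at 0.99.

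At 0h 44.2% of all genes tested were higher and 18.1% lower in the CBP arm than in WT cells, or 25.4% and 26.9% after scaling, and several list counts lie near these shares. The lists held 7 higher and 0 lower of 9 co-chaperones, 6 and 2 of 14 disulfide enzymes, 11 and 3 of 17 degradation genes, 5 and 2 of 11 glycan folding genes, 8 and 3 of 16 translocon genes, and 4 and 5 of 14 sensors and transducers. After scaling the higher and lower counts were 2 and 1, 2 and 5, 5 and 5, 0 and 3, 1 and 5, and 1 and 8, in the same order. SELENOS was again lower, averaging 27.8 ± 1.84 FPKM in the CBP arm and 46.1 ± 1.98 FPKM in WT cells (-0.71, limma adjusted p = 1.16e-07). PPP1R15A averaged 23.9 ± 1.88 FPKM in the CBP arm and 35.5 ± 1.10 FPKM in WT cells (-0.56, limma adjusted p = 1.41e-06), and ATF4 had -0.41 (limma adjusted p = 6.84e-07). MBTPS1 averaged 41.1 ± 1.82 FPKM in the CBP arm and 30.0 ± 0.59 FPKM in WT cells (0.44, limma adjusted p = 6.39e-07). EDEM1, which passes misfolded glycoproteins to degradation, had 0.38, TMX1 0.37, QSOX1 0.34, HYOU1 0.31, DNAJC10 0.31 and SEC11A 0.31, and SSR3 had -0.29. MOGS (0.28) and STT3B (0.21) were called as deposited and not after scaling (limma adjusted p = 0.0755 and 0.0614). DDIT3 did not differ detectably at 0h, with 0.03 (SE 0.092, limma adjusted p = 0.823), and TRIB3 had -0.11 (limma adjusted p = 0.225).

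Between the times, 31.3% of all genes tested were higher at 60h than at 0h and 41.5% lower in the CBP arm, and 28.8% and 38.0% in WT cells. After scaling these shares were 36.3% and 35.8% in the CBP arm, and 33.6% and 32.7% in WT cells. Of 9 co-chaperones, 8 were higher and 0 lower in the CBP arm, and 7 and 0 in WT cells, or, after scaling, 9 higher in the CBP arm and 7 in WT cells. In the CBP arm the ER stress-inducible secreted protein MANF had 0.91 and CRELD2 0.88, and in WT cells CRELD2 had 0.99 and HYOU1, a large HSP70 relative of the ER, 0.81. MANF also rose in WT cells (0.74), as did HYOU1 in the CBP arm (0.62). Of the 14 sensors and transducers, 10 were higher and 1 lower in the CBP arm, and 11 and 2 in WT cells, or 12 and 1 in each arm after scaling. DDIT3 averaged 8.81 ± 0.67 FPKM in the CBP arm at 60h and 2.36 ± 0.24 FPKM in the CBP arm at 0h, 3.74-fold higher (1.55, limma adjusted p = 1.56e-08). In WT cells DDIT3 was also higher at 60h, averaging 4.29 ± 0.25 FPKM, against 2.31 ± 0.46 FPKM at 0h. CREB3L2 was 3.07-fold higher at 60h in the CBP arm (1.54, limma adjusted p = 1.53e-12) and 1.80-fold higher in WT cells (0.79, limma adjusted p = 8.27e-10). ATF4 was lower at 60h in both arms, at -0.51 in the CBP arm and -0.58 in WT cells. BBC3, a pro-apoptotic BH3 gene, had 0.86 in WT cells (5.55 FPKM at 60h, 2.61 FPKM at 0h). In the CBP arm BBC3 averaged 4.26 FPKM at 60h and 2.01 FPKM at 0h, so its rise was not particular to WT cells.

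In the remaining lists the counts between the times depended more on the scale. Of the disulfide enzymes, 7 were higher and 4 lower at 60h in the CBP arm, and 8 and 3 in WT cells, or, after scaling, 8 and 1 in the CBP arm and 9 and 2 in WT cells. PDIA5 had 1.17 in the CBP arm and 0.71 in WT cells, and TXNDC5 had 0.84 in the CBP arm and 0.34 in WT cells. QSOX1 had -0.77 in WT cells and -0.13 in the CBP arm, the latter not called after scaling. Of the degradation genes, 8 were higher and 3 lower in the CBP arm, and 9 and 2 in WT cells, or, after scaling, 8 and 2 in the CBP arm and 13 and 0 in WT cells. SELENOS had 0.62 in the CBP arm and 0.45 in WT cells, and the lectin OS9 had 0.49 in the CBP arm and 0.44 in WT cells. SEL1L had 0.47 in WT cells, and in the CBP arm it averaged 48.2 FPKM at 60h and 41.6 FPKM at 0h. Among glycan folding genes, 4 were higher and 3 lower in the CBP arm, and 5 and 3 in WT cells, or, after scaling, 7 and 3 in the CBP arm and 5 and 3 in WT cells. In that list RPN1 stood at 0.51 and UGGT2 at 0.43 in the CBP arm, and 0.46 and 0.49 in WT cells. Among translocon genes, 9 were higher and 3 lower in the CBP arm, and 10 and 2 in WT cells, or, after scaling, 10 and 3 in the CBP arm and 11 and 1 in WT cells. SSR4 had -0.47 in the CBP arm and -0.52 in WT cells, SSR1 had 0.60 in the CBP arm, and the signal recognition particle receptor subunit SRPRB had 0.44 in WT cells. SSR1 averaged 65.4 FPKM at 60h and 59.0 FPKM at 0h in WT cells. SRPRB averaged 21.7 FPKM at 60h and 17.1 FPKM at 0h in the CBP arm.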

How the data were processed

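The data are RNA-seq of 12 libraries. Per the submitters' processing notes, Trimmomatic and featureCounts were used with the pig build Sscrofa11.1. Aligner, annotation release and strandedness were not given in the sources used here, so a gene's reads may include those of an overlapping or antisense partner. FPKM values of all libraries stand in 1 table deposited by the authors, with a column for each library and no pooling of replicates. WT libraries are the NC columns. Of the genes, 16801 had a symbol in the table, 687 gained one from RefSeq (Sscrofa11.1) and 14420 were kept by identifier. Positions are from that RefSeq table, matched by symbol or identifier for all 10 members.

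Genes with FPKM of 1 or more in at least 3 libraries were kept. Under limma 3.58.1 (R 4.3.3) a model of the 4 group means was fitted to log2(FPKM + 1), with a trended prior, two-sided tests and Benjamini-Hochberg adjustment over 11636 genes. The log2(FPKM + 1) scale understates changes of low genes. Fold values are ratios of mean FPKM. Whole reads were recovered from the FPKM steps for all 22521 genes above 0 (tolerance 0.001 reads), which gave the totals. Precision is limited by 3 libraries a group. The fit was tested on simulated data, as was the recovery of lengths and reads from totals set near the true ones. The search that finds the library totals was not tested in this way. Replicates of a group differed by more than sampling noise (chi-square per gene 2.23 to 5.02), so all 12 were counted.

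The members and lists were chosen with earlier results of these data known. Apart from the members, the named genes are, per comparison and list, up to 2 called genes of largest absolute change whose higher group averages at least 5 FPKM, and for likeness the 5 genes with the highest correlation with HSPA5. ATF4, EIF2AK3, MBTPS1, CREB3L2, PPP1R15A and PDIA3 were added for their roles after values were seen. Alternatives were 3 scalings (median-of-ratios, TPM, quantile), another pseudocount (0.1), another low-value filter (5) and none, a fit of the groups compared, no trend, a replicate block, leaving out each library, and, added after the data were seen, voom on recovered reads. No pairing of samples by replicate number was detected: same-number correlations of deviations ran from -0.094 to 0.082.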

Additional observations from a re-analysis of the deposited data

Results flagged for a closer look

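By the interaction term in limma over all 12 libraries, the effect of the CBP arm differed between 60h and 0h for 8 of the 10 genes. Of all genes tested, 24.3% had a positive call and 26.7% a negative one. Stage and labelled exposure differ together between the times and cannot be told apart. The values, on the log2(FPKM + 1) scale and as effect at 60h minus effect at 0h, were -0.57 for HSPA5, 0.24 for HSP90B1, 0.31 for CALR, 0.12 for CANX, 0.22 for PDIA4, 0.31 for PDIA6, 0.63 for HERPUD1 and -0.13 for ATF6. Under quantile scaling the calls of CANX (limma adjusted p = 0.132) and ATF6 (limma adjusted p = 0.0845) were lost.

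Among pathway genes, the same term was positive for the co-chaperone DNAJC1 (0.35), the oxidase QSOX1 (0.65), the disulfide enzymes TXNDC5 (0.51) and PDIA3 (0.11), the mannosidase-like EDEM3 (0.37), the glucosidase subunit PRKCSH (0.18), SSR1 (0.45), DDIT3 (0.86), MBTPS1 (0.16), CREB3L2 (0.75), PPP1R15A (0.68), and the collagen-modifying enzymes PLOD2 (0.50) and P4HA3 (0.50). It was negative for DNAJC3 (-0.29), EDEM1 (-0.46), UGGT1 (-0.24), SEC11C (-0.61) and TRIB3 (-0.77). The call of PDIA3 was lost after median-of-ratios scaling (limma adjusted p = 0.0534), with no low-value filter (0.0697), with no trend (0.0888) and with the replicate block (0.0516), and its value was -0.0482 under quantile scaling. It was also lost without any 1 of 8 libraries (limma adjusted p 0.0734 to 0.0975): replicates 1 and 3 of the CBP arm at 0h, 1 and 2 of the CBP arm at 60h, 2 and 3 of WT cells at 0h, and 2 and 3 of WT cells at 60h. The call of MBTPS1 was lost without CBP-arm replicate 1 at 0h (limma adjusted p = 0.0526) or WT replicate 3 at 0h (limma adjusted p = 0.0504).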

How the results depend on the processing

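For the 10 genes, 1055 of 1090 values under alternatives kept their direction and their side of the threshold, 14 lost a call, 16 gained one and 5 changed sign. Median-of-ratios scaling moved the most. At 0h it left 2958 genes higher and 3131 lower in the CBP arm, against 5148 and 2102 as deposited, and at 60h 3899 and 4155, against 5200 and 3137. The members called higher at 0h were 2 under it and 2 under TPM scaling, against 4, and the members with a lower interaction were 1 under quantile scaling, against 2. Signs changed at 0h under median-of-ratios scaling for HSPA5 (-0.0691), HSP90B1 (-0.0789), CANX (-0.0608) and CREB3L2 (-0.0269), and at 60h for PPP1R15A (-0.0082). Without 1 library they changed for XBP1 at 60h (0.005 without WT replicate 1, range -0.0757 to 0.005), ATF6 between times in the CBP arm (-0.000222 without replicate 1 at 60h, range -0.000222 to 0.0204) and EIF2AK3 at 0h (0.0509 without CBP-arm replicate 3, 0.0288 without WT replicate 1, range -0.0549 to 0.0509). Under quantile scaling the interaction of ATF4 was -0.00816 and that of PDIA3 -0.0482. The cause was not tested.

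Leaving out each library, the members called at 60h stayed at 6 higher and 3 lower, and at 0h at 3 to 4 higher and 4 lower. No pairing by replicate number was detected, and the replicate block gave 5167 higher and 3103 lower genes at 60h and 5098 and 2084 at 0h. It changed no call of the 10 genes, and of the other named genes it ended that of the PDIA3 interaction (limma adjusted p = 0.0516). Voom on recovered reads, chosen after seeing the data, called 6 members higher and 3 lower at 60h.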

Other observations

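Collagen is a major client of the ER, and its folding enzymes split between the arms at 60h, with 6 of 13 higher and 5 lower in the CBP arm than in WT cells (4 and 5 after median-of-ratios scaling), against 44.7% and 27.0% of all genes tested (33.5% and 35.7%). P4HA2, a catalytic subunit of collagen prolyl 4-hydroxylase, averaged 37.4 ± 0.37 FPKM in the CBP arm and 79.5 ± 0.51 FPKM in WT cells at 60h (-1.07, limma adjusted p = 1.94e-11), and PPIB, an ER prolyl isomerase, had 0.49. At 0h 5 were higher and 7 lower (1 and 8 after scaling), against 44.2% and 18.1% of all genes (25.4% and 26.9%), with P4HA2 at -0.84 and P4HA1 at -0.47. Between the times 11 of 13 were higher at 60h in the CBP arm and 10 of 13 in WT cells (12 and 10 after scaling), against 31.3% and 28.8% of all genes tested (36.3% and 33.6% after scaling). The lysyl hydroxylase PLOD1 had 0.98 in the CBP arm and 1.12 in WT cells, and the collagen chaperone SERPINH1 had 0.94 and 0.65.

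The 5 genes whose levels followed HSPA5 most closely over the 12 libraries, among 10571 genes ranked, were PKDCC (Pearson r 0.996), FN1 (0.996), ANTXR2 (0.996), GPRC5B (0.995) and SELENOM (0.995). These libraries share the 4 groups, so the correlations are a description. Fibronectin (FN1) averaged 1126 ± 54.0 FPKM in the CBP arm at 60h and 1315 ± 20.8 FPKM in WT cells at 60h, 726 ± 14.7 FPKM in the CBP arm at 0h and 722 ± 4.42 FPKM in WT cells at 0h. Of the members, DNAJB9 followed HSPA5 most closely (0.966) and ATF6 least (0.395).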
